A study of Mus musculus with 4 samples.

Results

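The genes described here are the cadherins whose symbols are *Cdh* and a number, together with the protocadherins whose symbols begin with *Pcdh*. They were taken by symbol alone, from the probe sets that the platform annotation gives a single gene symbol. The symbol rule uses no measured value, but earlier results of these data were known when it was chosen. This gave 101 of the 45101 probe sets and 56 of the 18194 named genes, of which 21 were *Cdh* genes and 35 *Pcdh* genes. Transcripts were measured with Affymetrix mouse arrays in the tracheoesophageal anlage of BALB/c embryos at about E9.75, when this foregut region is still a single tube and the lung bud is a ventral swelling. The anlage was cut by hand under a microscope into a dorsal and a ventral part, and 2 arrays were made for each part, called biological replicates in the labels. No treatment or mutation separates the groups, so the comparison asks which adhesion genes differ along the dorsoventral axis. The labels do not tell whether an array stands for 1 litter or a pool, so every p-value here reflects spread among these arrays, which may be technical.

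Cadherins are calcium-dependent adhesion receptors of the cell surface. Classical cadherins bind the same cadherin on the neighbouring cell and hold the actin cytoskeleton through catenins, and the cadherins a cell carries help to sort it from its neighbours. Epithelia are known for E-cadherin and mesenchyme for N-cadherin and cadherin-11, while VE-cadherin marks endothelium and cadherin-6 and cadherin-19 are known from the neural crest. Protocadherins share the extracellular cadherin repeats but lack the catenin-binding tail, and they are best known from neurons and from early mesoderm.

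The values are RMA values, and they are read as log2. RMA corrects background, sets quantiles equal over the arrays and then summarises the probes of a probe set. A difference is dorsal minus ventral on that scale, taken from the probe set with the highest mean of each gene. A gene was tested with limma when it lay above the array's 40th percentile (4.69 to 4.82) on at least 2 arrays, and it passed at a Benjamini-Hochberg adjusted p under 0.05 over all 13139 tested genes. The array medians lay between 5.42 and 5.47. The tissue holds epithelium, mesenchyme, vessels and crest cells together, so fewer cells of a type and less RNA per cell cannot be told apart. Between the arrays of a part, the median size of the difference over tested genes was 0.076 dorsally and 0.26 ventrally. The limma fit pools variance over genes, with 18.7 prior beside 2 residual degrees of freedom. A gene's standard error and p-value thus mostly reflect the spread of all tested genes, less its own. Over all tested genes, the dorsal minus ventral difference had a median of 0.074, and of -0.016 after a further quantile normalization. *Nkx2-1*, which defines the respiratory epithelium, lay between 5.03 and 5.25 on the 4 arrays, below every array's median. The epithelial marker *Epcam* lay between 9.69 and 10.19.

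Of the 56 genes, 32 were tested. The other 24 included *Cdh7*, *Cdh8*, *Cdh9*, *Cdh17*, *Cdh18*, *Cdh26*, *Pcdh11x*, *Pcdh20* and 16 of the 22 clustered beta protocadherins. Of these, 23 were below the 40th percentile on every array and 1 was above it on a single array. Their values reached at most 5.002, and the size of their differences at most 0.51. No detection calls were used, so such a value shows only a low place on the array. Genes not tested were 42.9% of the members and 27.8% of all named genes.

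In the dorsal part *Cdh19* and *Cdh2* were higher, and in the ventral part *Pcdh8*, *Pcdh17* and *Pcdh7* were higher. These 5 genes were 15.6% of the 32 tested members, beside 8.88% of all tested genes. The dorsal calls were 6.25% of the members, beside 4.79% of all genes, and the ventral calls 9.38%, beside 4.09%. At an unadjusted p under 0.05 there were 13 of the 32 tested members, beside 19.0% of all tested genes. The arrays of the parts did not overlap for 18 members, or 56.2%, beside 50.9% of all tested genes. Every dorsal array was higher for 8 of the 32 tested members, beside 33.3% of all tested genes. Every ventral array was higher for 10 of the 32, beside 17.6%. Among the 18 without overlap, *Cdh19* passed the filter only through the dorsal arrays, and *Cdh16* and *Cdh20* only through the ventral ones. The median difference over the tested members was -0.028, and over the 27 that did not pass it was -0.0095. Both *Cdh* calls were dorsal and all 3 *Pcdh* calls ventral.

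**Figure D1:**
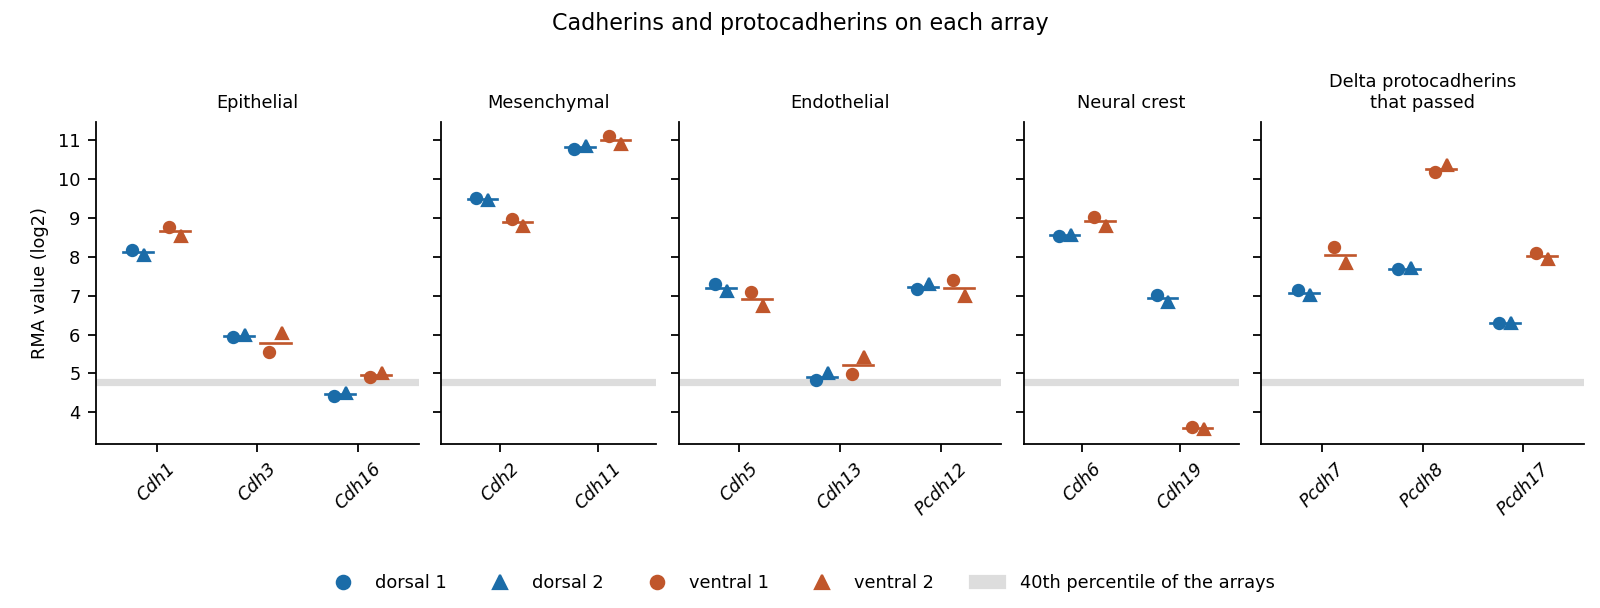
RMA values (log2, vertical axis) on each array for the tested members of the 4 contrasted cadherin classes and for the protocadherins that passed the test. Symbols are single arrays, short lines are the means of 2 arrays, and the grey band spans the arrays' 40th percentiles. *Cdh19* stands at about 7 dorsally and under 4 ventrally, *Pcdh8* is above 10 only on the ventral arrays, and among the endothelial cadherins *Pcdh12* nearly coincides in the 2 parts.

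*Cdh19* (probe set 1457373_at) encodes a type II cadherin known from neural crest cells and the precursors of Schwann cells. It measured 7.02 and 6.84 dorsally against 3.62 and 3.57 ventrally. Both dorsal values were well above the array medians, and both ventral values were below the 40th percentile. The difference was 3.34 (adjusted p = 2.93e-12 from limma, standard error 0.169, 2 arrays in each part), and it was 3.40 between the arrays numbered 1 and 3.27 between those numbered 2. This is 10.1-fold on the linear scale, but the ventral values lie among the lowest of the arrays. With every value under the 40th percentile set to that percentile, the difference was 2.17. *Cdh19* passed the filter only through the dorsal arrays, and without either of those arrays it was not tested.

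*Cdh6*, another crest cadherin gene, had the other direction. It encodes a type II cadherin of the early crest and of kidney tubules. It measured 8.53 and 8.57 dorsally and 9.03 and 8.79 ventrally. All 4 values were high on the arrays, the ventral ones slightly more so, without overlap. The difference of -0.36 did not pass the test (95% interval -0.72 to -0.0038, adjusted p = 0.258 from limma), and the second *Cdh6* probe set gave -0.26. *Cdh7*, the third crest cadherin, was not tested.

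All 6 measured markers of the neural crest and its glia passed the test. Of these, 5 were higher dorsally, among them the receptor gene *Ret* (4.79), the transcription factor gene *Tfap2b* (2.82) and *Sox10* (2.05), which encodes a defining factor of crest and glia. *Ednrb*, the endothelin receptor gene of crest and other cells, was higher ventrally (-1.37). *Sox10* measured 8.72 and 8.74 dorsally and 6.55 and 6.81 ventrally, so it was above the medians in both parts, while *Foxd3*, a factor of early crest, was below the 40th percentile on both ventral arrays. The list's summed level on the linear scale was 2322 and 2412 dorsally and 1075 and 1087 ventrally. The part of crest cell number in the difference of *Cdh19* was not tested.

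*Cdh2* (probe set 1418815_at) encodes N-cadherin, the classical cadherin of mesenchyme, neural tissue and heart muscle. Its values were 9.51 and 9.45 dorsally and 8.98 and 8.80 ventrally. Every array was far above its median, and each dorsal value exceeded each ventral one. The difference was 0.59 (standard error 0.169, adjusted p = 0.0291 from limma), a 1.51-fold higher dorsal level. The other *Cdh2* probe set had the same direction, with 9.29 and 9.28 dorsally, 8.63 and 8.12 ventrally, and a difference of 0.91. The call was lost without dorsal replicate 1 (adjusted p = 0.696), without dorsal replicate 2 (0.494) and with no filter on low values (0.0545). It was also lost for this probe set when every probe set was tested on its own (0.0700), while the other one passed (0.0192).

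*Cdh11* encodes cadherin-11, which is abundant in mesenchyme and in cells of the bone lineage. It measured 10.78 and 10.85 dorsally and 11.10 and 10.89 ventrally. These values were high throughout, and the ventral ones were above the dorsal ones by little more than the spread. The difference was -0.18 (95% interval -0.54 to 0.17, adjusted p = 0.609 from limma). Its second probe set had 5.21 and 5.52 dorsally and 6.33 and 5.82 ventrally, a difference of -0.71 (adjusted p = 0.0815 over all probe sets). The change of *Cdh2* exceeded that of *Cdh11* by 0.77. Among the 7 mesenchyme markers, 3 were higher dorsally and none ventrally. They were the homeobox gene *Prrx1* (3.08) and the genes of the collagen chain *Col1a2* (1.11) and of the PDGF receptor *Pdgfrb* (0.60). Their list had a summed linear level 1.41 times as high in the dorsal part, and 4 of 6 neuronal markers were also higher dorsally. In contrast, all 8 tested heart muscle markers were higher in the ventral part. The share of these cell types in the difference of *Cdh2* was not tested.

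*Cdh1* encodes E-cadherin, the classical cadherin of epithelia. It measured 8.19 and 8.06 dorsally and 8.76 and 8.55 ventrally. All were well above the medians, and the ventral values were higher with no overlap. The difference was -0.53 (95% interval -0.89 to -0.18), and its adjusted p of 0.0567 from limma missed the threshold. *Cdh1* passed in 8 of 16 alternative settings, among them a looser threshold of 0.1 and runs without 1 array. With a further quantile normalization its adjusted p was 0.0197 from limma, and with no filter it was 0.0964. With 1 array left out the difference ranged from -0.64 to -0.43. The changes of *Cdh2* and *Cdh1* differed by 1.12, namely by 1.11 within the arrays numbered 1 and by 1.14 within those numbered 2. On the linear scale this is a 2.18-fold change in the ratio of *Cdh2* to *Cdh1* signal between the parts. The difference between the changes has no test of its own.

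The other epithelial cadherins did not pass either. *Cdh3*, which encodes P-cadherin, measured 5.93 and 5.99 dorsally and 5.55 and 6.04 ventrally, a difference of 0.17 with overlapping arrays (95% interval -0.22 to 0.55). *Cdh16*, which encodes a cadherin best known from the kidney, measured 4.42 and 4.50 dorsally and 4.91 and 5.01 ventrally. It passed the filter only through the ventral arrays, and its difference was -0.50 (95% interval -0.85 to -0.15, adjusted p = 0.0761 from limma). The 3 tested genes of the class had a median difference of -0.50, which is the value of *Cdh16* itself. Among the 11 epithelial markers, the forkhead gene *Foxa1* (-0.63) and the claudin genes *Cldn4* (-0.56) and *Cldn7* (-0.55) passed ventrally. *Sox2*, a foregut transcription factor gene, passed dorsally (0.57). Of similar size without passing were the keratin gene *Krt19*, higher dorsally (0.59, adjusted p = 0.0584 from limma), and the claudin gene *Cldn6*, higher ventrally (-0.59, adjusted p = 0.0581). In all, 2 of the 11 differences were positive and 9 negative. Summed on the linear scale, the 11 markers had 11386 and 10875 dorsally and 15775 and 12601 ventrally, 1.27 times as high in the ventral part.

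No endothelial cadherin passed the test. *Cdh5* encodes VE-cadherin, the classical cadherin of vessel walls. It measured 7.29 and 7.12 dorsally and 7.09 and 6.72 ventrally, a difference of 0.30 (95% interval -0.07 to 0.67, adjusted p = 0.387 from limma). When its probe sets were averaged the difference was -0.036. *Cdh13*, whose T-cadherin is anchored to the membrane by lipid, measured 4.82 and 5.01 dorsally and 4.98 and 5.43 ventrally. It was near or below the medians, with a difference of -0.29 (95% interval -0.67 to 0.09). *Pcdh12*, an endothelial protocadherin gene, measured 7.16 and 7.30 dorsally and 7.39 and 6.998 ventrally, a difference of 0.035 with overlapping arrays (95% interval -0.34 to 0.41). The direction of *Pcdh12* turned with 1 further quantile normalization (-0.056). None of the 9 endothelial markers passed, and their median difference was -0.074.

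**Figure D2:**
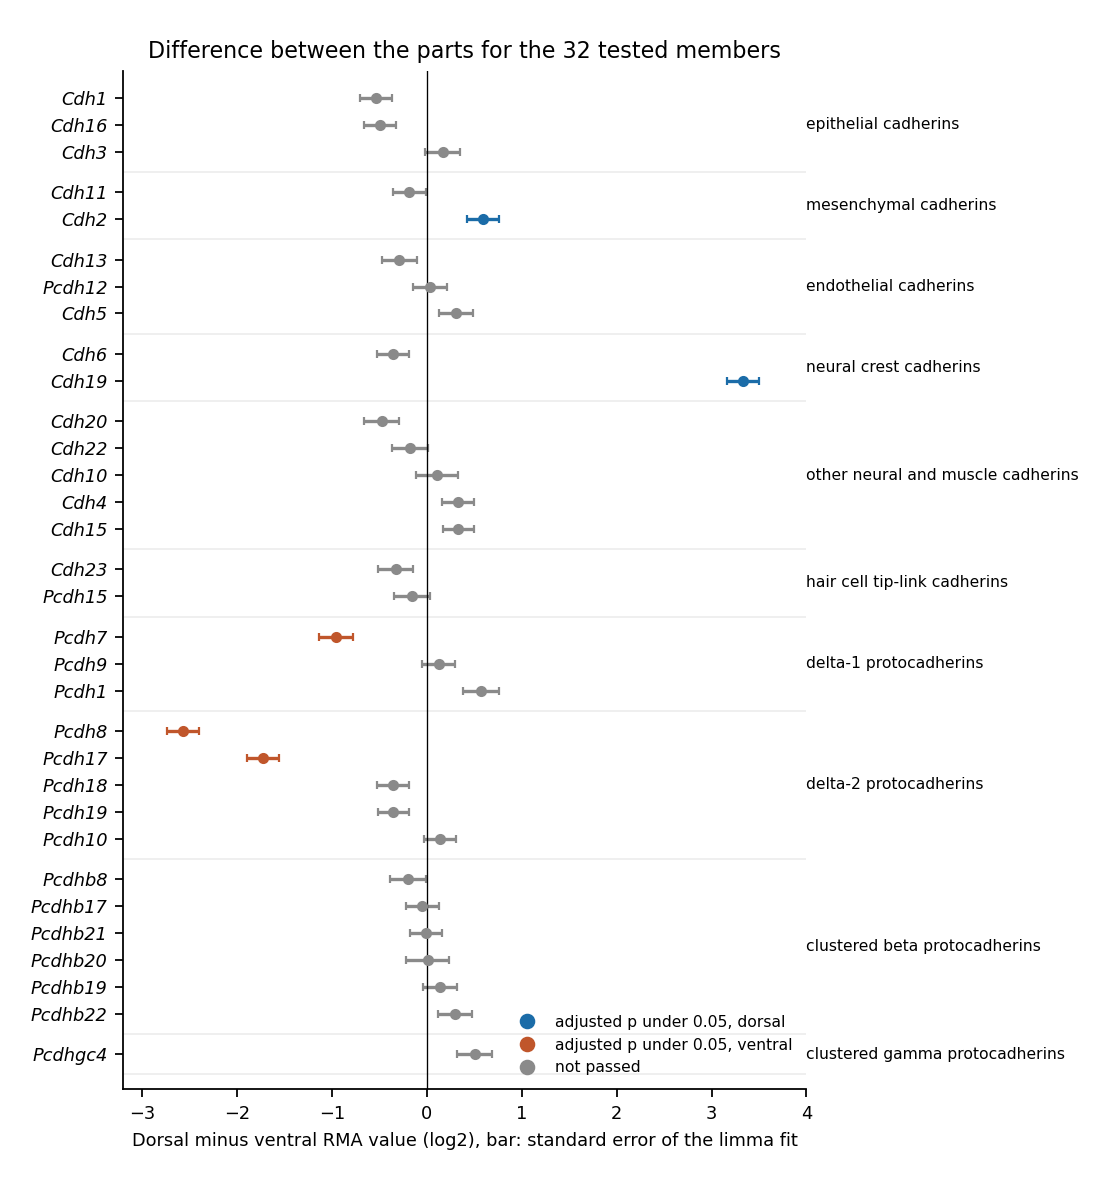
Dorsal minus ventral difference (log2, horizontal axis) of the 32 tested members, grouped by class, with the standard error of the limma fit as the bar. *Cdh19* (3.34) and *Cdh2* (0.59) pass on the dorsal side and *Pcdh8* (-2.57), *Pcdh17* (-1.73) and *Pcdh7* (-0.96) on the ventral side, while the 27 grey genes lie between -0.53 and 0.57.

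*Pcdh8* (probe set 1447825_x_at) encodes a delta-2 protocadherin known from the paraxial mesoderm, where it acts in somite formation, and from synapses. Its values were 7.67 and 7.71 dorsally and 10.17 and 10.36 ventrally. It was above the medians in both parts and far higher on both ventral arrays. The difference was -2.57 (adjusted p = 2.13e-10 from limma, standard error 0.169, 2 arrays in each part), a 5.95-fold higher ventral level. On the second *Pcdh8* probe set the dorsal arrays had 6.03 and 6.08 and the ventral ones 8.90 and 8.95, a difference of -2.87. The probe set used is of a kind that can match several transcripts, and the other is not. Of the 4 tested somite and skeletal muscle markers, *Meox1* (2.01) and *Meox2* (0.78), both homeobox genes of somites, were higher dorsally and none ventrally. The neuronal markers that passed were likewise all dorsal.

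*Pcdh17* (probe set 1453070_at) encodes another delta-2 protocadherin, known from axons and synapses of the brain. It measured 6.29 and 6.29 dorsally and 8.09 and 7.93 ventrally. The dorsal arrays agreed to the second decimal and lay above the medians, and the ventral ones were clearly higher. The difference was -1.73 (standard error 0.168, adjusted p = 1.08e-07 from limma), or 3.31-fold, and the other probe set gave -1.81. *Pcdh8* and *Pcdh17* passed in all 16 alternatives.

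*Pcdh7* (probe set 1449249_at) encodes a delta-1 protocadherin that was first described from brain and heart. It measured 7.14 and 7.02 dorsally and 8.24 and 7.84 ventrally. All values were above the medians, with the ventral arrays higher and farther apart. The difference was -0.96 (standard error 0.179, adjusted p = 0.000646 from limma), or 1.95-fold, with -1.18 from the other probe set. Without dorsal replicate 2 the adjusted p was 0.0609.

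The heart muscle markers moved the same way as these 3 genes. Among the 8 that were tested, the differences ran from -0.80 for *Myh7* to -6.16 for *Myh6*, genes of cardiac myosin heavy chains, and *Tnnt2*, the gene of cardiac troponin T, had -5.34. Their summed linear level was 2281 and 2256 dorsally and 20029 and 15397 ventrally, 7.81 times as high in the ventral part. *Myh6* was below the 40th percentile on both dorsal arrays, so it passed the filter only through the ventral ones. The liver markers *Afp* (-3.50) and *Ttr* (-2.08) were also higher ventrally. Of the 4 mesothelium markers 3 were higher dorsally, among them the transcription factor gene *Wt1* (2.96), and of the 3 blood markers 1 was higher dorsally. *Wt1* was below the 40th percentile on both ventral arrays and passed the filter only through the dorsal ones. The part of heart or liver cells in the protocadherin differences was not tested.

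The remaining delta-2 genes had smaller differences. *Pcdh18* measured 8.91 and 8.80 dorsally and 9.24 and 9.18 ventrally, a difference of -0.36 (95% interval -0.71 to -0.0068, adjusted p = 0.252 from limma). *Pcdh19*, which is mutated in a form of epilepsy, measured 5.89 and 5.80 dorsally and 6.18 and 6.20 ventrally, a difference of -0.35 (adjusted p = 0.259). *Pcdh10*, a gene of axon growth, measured 6.20 and 6.13 dorsally and 6.10 and 5.95 ventrally, with a difference of 0.14 (adjusted p = 0.701). All 5 delta-2 genes had arrays without overlap, beside 50.9% of all tested genes, and 4 of these were ventral, beside 17.6%. The class had a median of -0.36. The change of *Pcdh8* exceeded that of *Pcdh18* by -2.22, and that of *Pcdh17* exceeded that of *Pcdh10* by -1.87. Among the delta-1 genes, *Pcdh1*, a protocadherin gene of airway epithelium, had 5.66 and 5.13 dorsally and 4.98 and 4.67 ventrally, a difference of 0.57 on the opposite side from *Pcdh7* (95% interval 0.17 to 0.97, adjusted p = 0.0732 from limma). *Pcdh1* passed in 5 of 15 alternative settings, a looser threshold of 0.1 among them. *Pcdh9* differed by 0.13.

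The sequences before the starts of the 3 ventral protocadherin genes are shown because these genes moved together. They are the 250 bases before the transcript start from RefSeq on GRCm38.p6, read in the direction of the gene. Capitals mark CCAAT on either strand (written ATTGG where it lies on the opposite strand) and TATAAA. The windows are chr14:79771313-79771562 on the minus strand for *Pcdh8*, chr14:84443313-84443562 on the plus strand for *Pcdh17* and chr5:57717831-57718080 on the plus strand for *Pcdh7*.
Pcdh8: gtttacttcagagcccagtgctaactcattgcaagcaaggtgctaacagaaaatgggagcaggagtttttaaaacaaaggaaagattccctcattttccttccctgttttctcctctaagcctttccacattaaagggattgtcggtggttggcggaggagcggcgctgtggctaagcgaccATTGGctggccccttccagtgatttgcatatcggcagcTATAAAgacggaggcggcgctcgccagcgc
Pcdh17: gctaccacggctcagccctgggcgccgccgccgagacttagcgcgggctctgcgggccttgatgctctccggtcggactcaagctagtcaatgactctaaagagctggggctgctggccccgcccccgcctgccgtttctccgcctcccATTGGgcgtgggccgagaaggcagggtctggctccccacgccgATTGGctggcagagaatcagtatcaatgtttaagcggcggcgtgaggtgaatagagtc
Pcdh7: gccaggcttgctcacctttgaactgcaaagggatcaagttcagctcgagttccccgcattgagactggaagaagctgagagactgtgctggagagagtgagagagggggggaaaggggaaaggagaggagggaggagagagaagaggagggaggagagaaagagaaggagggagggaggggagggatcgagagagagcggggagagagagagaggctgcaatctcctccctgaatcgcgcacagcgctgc
CCAAT lies 68 bases before the start of *Pcdh8* and 58 and 101 bases before that of *Pcdh17*, and these letters are not in the *Pcdh7* window. TATAAA, found in 12.4% of all windows of the table, is in the *Pcdh8* window and in neither of the others. The windows of *Pcdh8* and *Pcdh17* share CCAAT, but so do those of the delta-2 genes that did not pass.

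For comparison, the stretch around CCAAT is shown for those delta-2 genes, *Pcdh10* at chr3:45378335-45378365 on the plus strand, *Pcdh18* at chr3:49757331-49757361 on the minus strand and *Pcdh19* at chrX:133689041-133689071 on the minus strand.
Pcdh10: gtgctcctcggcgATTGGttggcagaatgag
Pcdh18: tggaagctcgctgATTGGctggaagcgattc
Pcdh19: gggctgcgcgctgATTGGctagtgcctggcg
It lies 50, 32 and 65 bases before their starts. All 5 delta-2 genes had CCAAT in the window, as did 14 of the 20 members with a window in the table. It was in 33.8% of all 32851 windows and in 15 of the 23 windows of members. CCAAT was searched for after the sequences had been seen, and it is a match of letters only. The letters CANNTG, found in 66.2% of all windows, and GATAA, found in 22.6%, were in none of the 3 ventral genes' windows. The table holds no window for *Cdh19*, *Cdh2* or *Cdh1*.

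**Figure D3:**
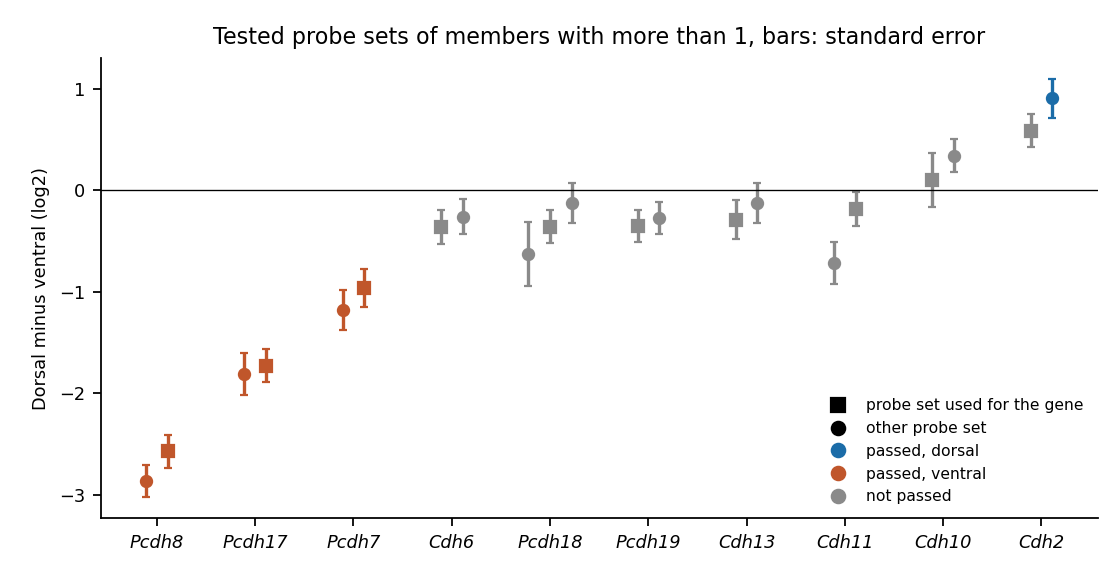
Dorsal minus ventral difference (log2, vertical axis) of each tested probe set for the 10 members with more than 1, with the standard error of the limma fit over all probe sets as the bar. In this fit both probe sets of *Pcdh8*, *Pcdh17* and *Pcdh7* pass and, of *Cdh2*, only the second (0.91), and no gene has tested probe sets on both sides of 0.

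Of the 101 probe sets, 43 were tested on their own. Dorsal calls fell on 2 of them, beside 3.28% of all tested probe sets, and ventral calls on 6, beside 2.56%. The ventral ones were the 2 tested probe sets each of *Pcdh8*, *Pcdh17* and *Pcdh7*, so they are not 6 separate genes. The 43 probe sets gave 10 members with more than 1 tested probe set, and in all 10 the probe sets had the same sign. The sizes were less alike. The *Cdh11* probe sets differed by -0.18 and -0.71, and the 3 of *Pcdh18* by -0.36, -0.12 and -0.63.

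The neural and muscle cadherins of the remaining class gave 5 tested genes and no call. *Cdh4*, which encodes R-cadherin, measured 6.60 and 6.74 dorsally and 6.35 and 6.33 ventrally, a difference of 0.33 (adjusted p = 0.297 from limma). *Cdh15*, the M-cadherin gene of skeletal muscle, also differed by 0.33, with 5.22 and 5.34 dorsally and 4.95 and 4.95 ventrally. *Cdh20* passed the filter only through the ventral arrays and differed by -0.47 (95% interval -0.86 to -0.09, adjusted p = 0.143 from limma). The tip-link cadherins of hair cells, *Cdh23* and *Pcdh15*, differed by -0.33 and -0.15 with overlapping arrays.

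The clustered protocadherins, whose many isoforms give neurons their surface identity, showed no call. The 6 tested beta genes had differences from -0.20 (*Pcdhb8*) to 0.29 (*Pcdhb22*), a median of 0.0005 and overlapping arrays in every case. They are close copies of each other, so that a probe set may take signal from several. The 16 beta genes that were not tested had values from 2.69 to 4.73. *Pcdhgc4*, the only gamma gene with a probe set of its own here, measured 6.05 and 6.24 dorsally and 5.85 and 5.43 ventrally. Its difference was 0.50 (95% interval 0.13 to 0.88, adjusted p = 0.102 from limma).

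Among the catenins and other junction partners of cadherins, 13 of 16 genes were tested and 3 passed, beside 8.88% of all tested genes. *Arvcf*, which encodes a catenin that binds the membrane-near part of the cadherin tail, was higher dorsally by 0.65 (adjusted p = 0.0153 from limma). *Vcl*, the gene of vinculin, which links the junction to actin, was higher dorsally by 0.57 (adjusted p = 0.0424). *Ctnnd2*, a catenin gene of neural tissue, was higher ventrally (-0.57, adjusted p = 0.0429). The other 10, including the beta-catenin gene *Ctnnb1* (0.16) and the alpha-catenin gene *Ctnna1* (0.051), did not pass, and the median of the list was 0.051. With every probe set tested on its own, the dorsal calls fell on *Arvcf* and on another probe set of *Ctnna1*, and *Vcl* had none. None of the 13 passed when probe sets were averaged, or without either dorsal array. *Vcl* did not pass without ventral replicate 2 either.

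Of the desmosomal cadherins 2 of 6 were tested, and both were higher in the ventral part, beside 4.09% of all tested genes. *Dsc2* differed by -1.42 (adjusted p = 2.01e-06 from limma) and *Dsg2* by -0.74 (adjusted p = 0.00470), genes of desmosomes in epithelium and heart muscle. Of the Fat, Dachsous, Celsr, calsyntenin and Cdhr genes 13 of 16 were tested. *Dsg2* did not pass without either dorsal array, nor when probe sets were averaged (-0.45, adjusted p = 0.0948). *Fat3* was higher dorsally (0.65, adjusted p = 0.0408), and *Clstn2*, a calsyntenin gene of synapses, ventrally (-1.31, adjusted p = 1.51e-05). *Fat3* passed neither without a dorsal array nor without ventral replicate 2. Without probe sets that match several transcripts *Clstn2* differed by -0.39 and did not pass.

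**Figure D4:**
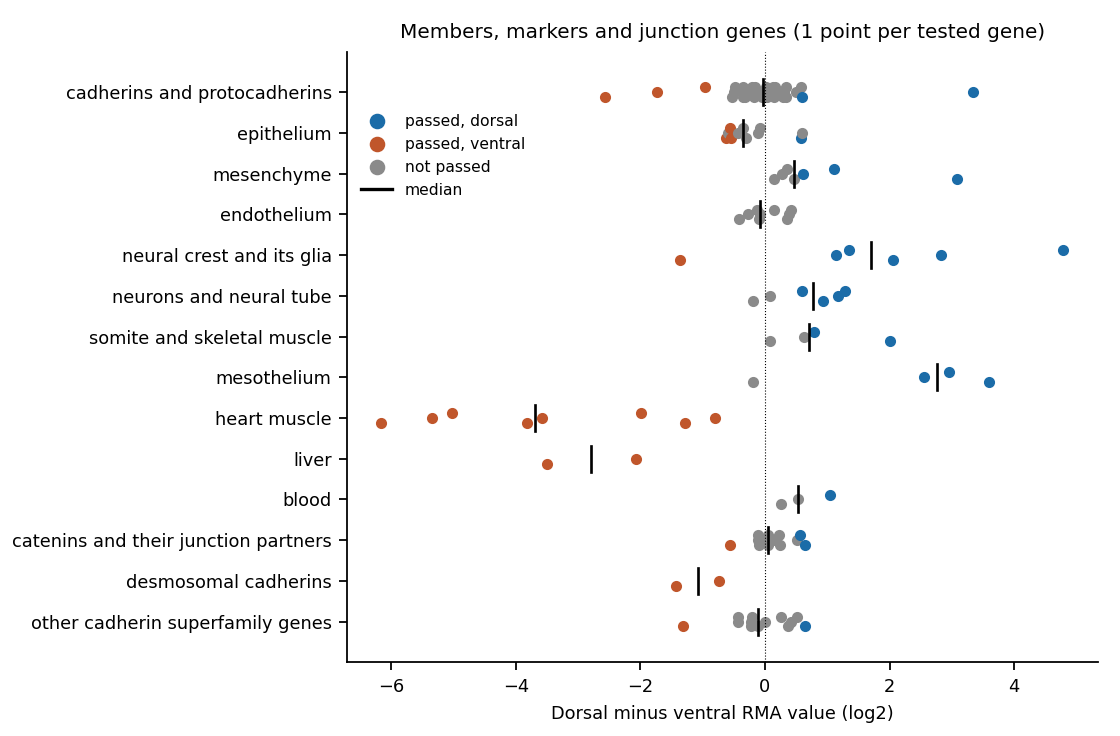
Dorsal minus ventral difference (log2, horizontal axis) of each tested cadherin or protocadherin, of the marker genes of 10 cell types and of the junction and other cadherin superfamily genes, 1 point per gene and the median as a line. The members centre on -0.028, the 8 heart muscle markers all lie on the ventral side, and 5 of the 6 neural crest markers lie on the dorsal side.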

How the data were processed

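Total RNA (100 ng per array) was labelled in 2 cycles and hybridised to Affymetrix mouse arrays. The authors summarised the intensities by RMA into the deposited values, which are read as log2 from their range (2.36 to 15.02). The sources used here do not give the software, its version or a genome build. No further normalization was applied, and precision is limited by having 4 arrays.

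Probe sets were named with the platform annotation of GEO, parts of which can be old. Of 45101 probe sets, 34958 had 1 symbol, 932 had several and 9211 were not named here. All 56 members were found in the RefSeq table of GRCm38.p6 by identifier with their symbols unchanged. Differences were fitted by the lmFit and eBayes functions of limma 3.58.1 (R 4.3.3), without a term for the replicate number. The same functions were afterwards run on simulated arrays whose means and spread were taken from these data. Intervals are 95% intervals of that fit, not adjusted. The smallest two-sided p of an exact permutation test with 2 arrays per part is 0.333.

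The members, classes, partners and marker lists were chosen with earlier results of these data known. The text names all members that passed, all tested members of the epithelial, mesenchymal, endothelial and crest classes, up to 3 more of each other class and of each marker list by size, partners that passed, and *Epcam*, *Nkx2-1*, *Ctnnb1*, *Ctnna1*, *Cldn4*, *Cldn7*, *Sox2*, *Ednrb*, *Foxd3*, *Myh7* and the genomic neighbours of members, chosen after their values were seen. Alternatives concerned the filter, normalization, choice of probe sets, variance model, replicate block, threshold and omission of each array. Protein sequences were not used here.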

Additional observations from a re-analysis of the deposited data

How the results depend on the processing

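The counts of genes that passed are given for each setting that moved them by over 1.5 times. Of the members, 2 were dorsal and 3 ventral. The dorsal count was 1 with no filter, 1 at an adjusted p under 0.01, and 0 to 8 when 1 array was left out (8 without ventral replicate 1). The ventral count was 6 with a further quantile normalization, where *Cdh1*, *Cdh6* and *Cdh16* were added, beside 2 dorsal ones. It was 5 at an adjusted p under 0.1. It was 2 to 9 when 1 array was left out, namely 2 without dorsal replicate 2, 9 without ventral replicate 1 and 5 without ventral replicate 2. When an array is left out, only the part that keeps both arrays gives the spread, and without ventral replicate 1 the dorsal calls rose to 35.1% of all tested genes. The median difference of the members was -0.27 with a filter at the 60th percentile.

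Of the catenins and partners, 2 were dorsal and 1 ventral. The dorsal count was 1 with no filter, 0 with the mean of probe sets, 0 at an adjusted p under 0.01, and 0 to 5 without 1 array. The ventral count was 0 with no filter, 0 with the mean of probe sets, 0 with every probe set on its own, 0 at an adjusted p under 0.01, and 0 to 2 without 1 array. Of the desmosomal and other superfamily genes, 1 was dorsal and 3 ventral. The dorsal count was 0 with no filter, with a further quantile normalization, with the mean of probe sets, with every probe set on its own and at an adjusted p under 0.01, and 0 to 5 without 1 array. The ventral count was 2 to 7 without 1 array.

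With the replicate number as a block, 4 members were dorsal and 5 ventral, and 2 superfamily genes were dorsal. The labels do not say that the numbers pair the samples. Arrays of the same number deviated from the mean of their part with a correlation of 0.136 over all tested genes.

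Of 515 values of named genes under the alternatives, 448 kept their direction and side of the threshold, 29 passed newly, 31 passed no longer and 7 turned. The turned ones were *Pcdh12* with a further quantile normalization (-0.056), without dorsal replicate 2 (-0.037) and without ventral replicate 2, *Cdh5* with the mean of probe sets (-0.036), *Cdh3* without ventral replicate 1, and *Pcdh15* and *Pcdhb19* without ventral replicate 2. With 1 array left out, *Pcdh12* ranged from -0.16 to 0.23, *Cdh3* from -0.083 to 0.41, *Pcdh15* from -0.44 to 0.13 and *Pcdhb19* from -0.043 to 0.32. None of these genes passed the test with all 4 arrays. The causes were not tested. With values under the 40th percentile set to it, an alternative chosen after seeing the data, *Cdh19* still passed.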

Other observations

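The alpha protocadherins, another clustered group known from neurons, had no probe set of their own by the symbol rule. The 6 probe sets that the annotation gives to several alpha genes had values from 3.27 to 4.44, below the 40th percentile of every array. The genes next to the members that passed were also looked up in the order of the RefSeq table of GRCm38.p6. *Cdh19* lies between *Cdh7*, which was not tested, and *Dsel*, which differed by 0.30 (adjusted p = 0.398 from limma). *Pcdh8* and *Pcdh17* are both next to *Olfm4*, which was not tested. *Diaph3*, on the far side of *Pcdh17*, differed by -0.24 (adjusted p = 0.535), and *Stim2*, next to *Pcdh7*, by 0.24 (adjusted p = 0.506). *Cdh1* and *Cdh3*, the E-cadherin and P-cadherin genes, are neighbours and differed by -0.53 and 0.17. None of the tested neighbours named here passed the test.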
